A study of Mus musculus with 58 samples.

Results

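Rewarmed beige adipocytes were compared with warm white adipocytes of the same fat depot, the inguinal white adipose tissue of the mouse. The comparison used every mRNA library labelled as one of these 2 cell types, 3 rewarmed beige and 5 warm white, which is 8 of the 22 mRNA libraries and of the 58 samples of the series. All 11603 rows of the expression table, standing for 11544 gene symbols, were compared. The animals were C57BL/6J mice on chow. The beige mice lived at 23 °C, then for 1 week at 4 °C, and then for 4 weeks at 30 °C, a temperature at which a mouse needs little extra heat production. The white mice were born and kept at 30 °C and were never placed in the cold. The titles of their libraries read warm white, while the library names in the descriptions read white rewarm, with the same numbers. Cold beige adipocytes, 4 libraries taken after the week at 4 °C with no rewarming, are given beside the results as a reference. All groups carried the NuTRAP reporter, which Cre recombinase switches on and which puts a green fluorescent tag on ribosomes. An antibody to GFP was used to pull these ribosomes down, so that the RNA came mainly from the Cre-expressing cells and their descendants. Mouse lines with Ucp1 and with Adipoq driving the Cre (Ucp1-NuTRAP, Adipoq-NuTRAP) are named in the labels, without the library each gave rise to, so cell type, Cre line and temperature history cannot be told apart here.

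Beige adipocytes are fat cells of white depots that take up a heat-producing state in the cold. In that state they hold many mitochondria and express uncoupling protein 1, encoded by Ucp1, which lets protons leak back across the inner mitochondrial membrane so that fuel oxidation gives heat. Norepinephrine released in the cold acts through beta-adrenergic receptors, cAMP and the co-activator encoded by Ppargc1a. On return to warmth, beige cells lose Ucp1 and their many small lipid droplets and come to look like white adipocytes, which store triglyceride and secrete leptin and adiponectin. The comparison asks which transcripts still set former beige cells apart from white cells that had not been cooled.

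The promoters of Slc27a2, Dio2 and Cyp2f2 are shown first. These are named genes whose windows hold a searched motif, and they are not the top genes by rank. The sequences below are the 250 bases before the RefSeq start site on GRCm38.p6, written 5′ to 3′ in the direction of the gene, with matches to a searched motif in capitals. Slc27a2, which had the largest difference of all among the named genes, has its start region at chr2:126552774-126553023 on the plus strand, with AAGGTCA, the core motif of the estrogen-related receptors, on the opposite strand. Dio2 is shown at chr12:90739039-90739288 on the minus strand, with the cAMP response element TGACGTCA. Cyp2f2, on the white side, lies at chr7:27119705-27119954 on the plus strand and also holds AAGGTCA.
Slc27a2: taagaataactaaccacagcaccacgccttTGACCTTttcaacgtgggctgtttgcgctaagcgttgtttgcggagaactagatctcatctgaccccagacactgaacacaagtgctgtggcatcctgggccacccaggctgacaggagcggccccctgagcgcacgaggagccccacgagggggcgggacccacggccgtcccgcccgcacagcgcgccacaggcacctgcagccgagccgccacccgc
Dio2: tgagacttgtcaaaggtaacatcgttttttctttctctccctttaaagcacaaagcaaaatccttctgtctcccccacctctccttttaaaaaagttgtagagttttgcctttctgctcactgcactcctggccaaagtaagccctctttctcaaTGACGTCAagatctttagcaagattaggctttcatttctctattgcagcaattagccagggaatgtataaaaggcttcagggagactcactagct
Cyp2f2: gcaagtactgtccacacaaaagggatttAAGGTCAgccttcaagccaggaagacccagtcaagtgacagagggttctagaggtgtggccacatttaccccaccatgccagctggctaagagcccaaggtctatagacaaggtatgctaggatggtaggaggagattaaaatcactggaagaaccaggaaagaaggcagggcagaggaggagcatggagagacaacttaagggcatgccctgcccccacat

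Motifs were searched on both strands of these windows, and a match is a description of the letters only. AAGGTCA is also contained in sites of other nuclear receptors. It occurred in the windows of 4.7% of 27025 RefSeq genes, in 4.27% of the 1430 genes higher in rewarmed beige that had a window, and in 3.01% of the 1994 lower genes. Of 21 thermogenic genes that were higher and had a window, only Slc27a2 held it (4.76%). TGACGTCA occurred in 1.77% of all windows, in 3.01% of those of higher genes and in 3.21% of those of lower genes, and among the 21 thermogenic genes in that of Dio2.

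The expression values are log2 CPM, the base 2 logarithm of read counts scaled to a common library size, and every difference below is the rewarmed beige mean minus the warm white mean on that scale, ± its standard error. A gene was called where the adjusted p from limma was under 0.05. Values at or under -5 lie at the floor that the table gives to genes with no reads, and no fold is given where a whole group lies there. The deposited table gives no read totals, so the depth is unknown. The labels call the libraries biological replicates without naming animals, so the p-values measure the spread between libraries. That spread was pooled over all 22 mRNA libraries of the 5 groups. With the 8 libraries alone, the adjusted p from limma was 0.0101 for Ucp1 in place of 1.5e-05, and 2.98e-06 for Agt in place of 0.0002. Of the 117 called genes with a difference in the text, 10 lost the call in that fit. The values at the floor split the libraries into 2 sets with a floor of their own, batch 1 with rewarmed beige replicate 3 and white replicates 1, 2 and 5, and batch 2 with the other 4. The labels name no batch. Fitted as a term beside the groups over all 22 mRNA libraries, this split had a largest coefficient of 0.005 log2 units in any row. The deposited values thus hold almost no mean difference between the sets, as is left once a batch term has been subtracted. The degrees of freedom of the main fit do not allow for such a subtraction.

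Of the 11603 rows, 1971 (17.0%) were higher and 2601 (22.4%) were lower in rewarmed beige adipocytes, 4572 (39.4%) in all. These shares are the background for the counts of list members below. In the deposited values the larger differences lay on the beige side: 953 rows (8.21%) were called and at least 2-fold higher, while 382 (3.29%) were called and at least 2-fold lower. After quantile normalization these counts were 804 and 705, so the size of this imbalance depends on the scaling. All 3 beige libraries lay above all 5 white libraries for 1438 rows (12.4%) and below them for 1932 (16.7%). The median difference over all rows was -0.04, and the middle 90% lay between -0.85 and 1.76. Within batch 1, with a single beige library whose spread was taken from the other groups, 600 rows were higher and 704 lower, and within batch 2 the counts were 1929 and 1887. The share of calls that were higher, 43.1% as deposited, was 61.0% when totals were taken without the 20 most abundant genes, a scaling that moved the median of all rows up by 0.1, so a small difference in 1 direction depends on the scaling.

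**Figure D1:**
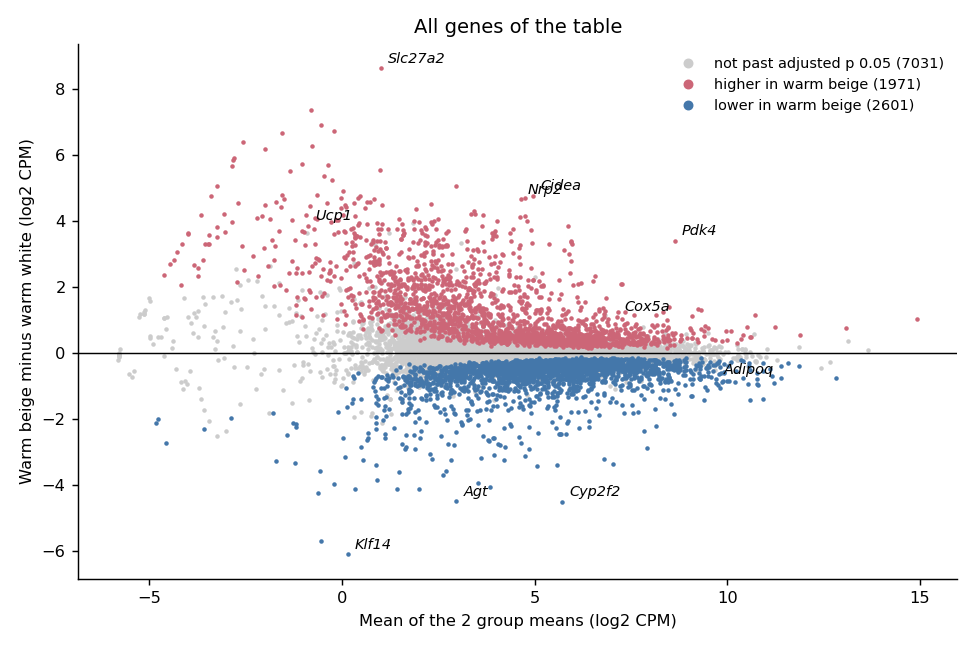
All 11603 rows, with the mean of the 2 group means in log2 CPM on the horizontal axis and the difference, rewarmed (warm) beige minus warm white, on the vertical axis. Points in red (1971) were higher and points in blue (2601) lower at an adjusted p under 0.05, and the higher points reach farther from 0 than the lower ones at middle levels.

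The label of adipocyte was checked against 12 markers. All 12 were measured and none lay at the floor in a group. Of them 8 were lower in rewarmed beige and none higher (median -0.44), 5 lower after quantile normalization, beside 22.4% of all rows, and their summed CPM was 17500 to 21800 in rewarmed beige and 23400 to 28200 in white libraries. Markers of vessels were higher in rewarmed beige. Of 18 endothelial markers 17 were higher, with a median difference of 3.25. The other, Rgcc, was lower by 0.36 on the log2 scale (adjusted p = 0.0128 from limma, and 0.133 without beige replicate 2). The summed CPM of all 18 was 1110 to 1500, against 458 to 549 in white and 448 to 769 in cold beige, so the white and cold beige ranges overlapped. Without Rgcc the sum was 815 to 1250 against 80.2 to 131 in white and 259 to 572 in cold beige. Of 12 smooth muscle and pericyte markers 9 were higher (median 3.25), with sums of 903 to 1350 against 738 to 915. Skeletal muscle markers were uneven: 3 of 15 passed the test, and their sums were 508, 479 and 99.8 in the beige libraries and 44.8 to 1070 in the white ones, with white replicate 2 the highest. That count was 13 without white replicate 2, 9 without beige replicate 3 and 1 after quantile normalization. Of 18 fibroblast and preadipocyte markers 10 were higher and 3 lower, the latter including Gsn, and the sum was 8470 to 12500 against 12500 to 15000. Of 11 macrophage markers 3 were higher, with sums of 180 to 208 against 87.8 to 146. That count was 6 with totals taken without the 20 most abundant genes, 7 without beige replicate 1 or white replicate 4, 6 without white replicate 1 and 1 without white replicate 5. In such pulldowns fewer cells of a type and less RNA per cell cannot be told apart. The part of these other cells in the results below was not tested. The ribosomal RNA precursor Rn45s, the most abundant row in both groups and singled out after its value was seen, was at 15.45 in rewarmed beige and 14.42 in white, a difference of 1.03 ± 0.38 (adjusted p = 0.0357). That call was lost without beige replicate 1 or 2 or without white replicate 1 or 4 (adjusted p of 0.0608 to 0.139).

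**Figure D2:**
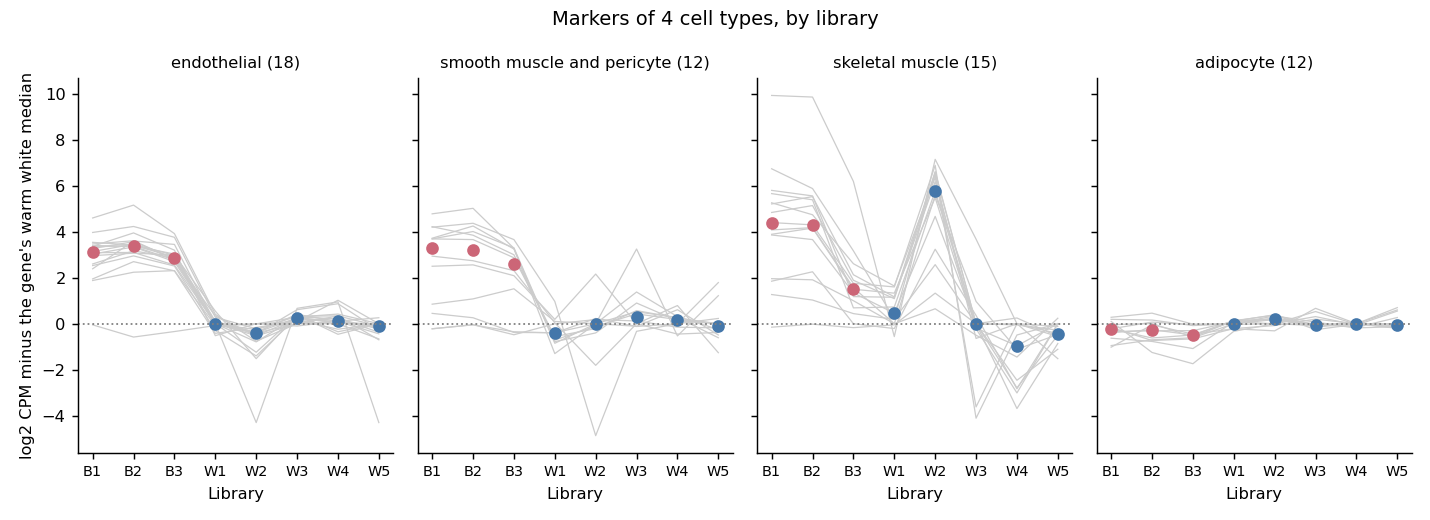
Marker genes of 4 cell types in each library (B1 to B3, rewarmed beige; W1 to W5, warm white), as log2 CPM minus the gene's median over the white libraries. Grey lines are single markers and points their median in that library: the endothelial and smooth muscle points lie above 0 in all 3 beige libraries, and those of skeletal muscle are high in B1, B2 and W2.

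Ucp1 itself was low in rewarmed beige adipocytes but above its level in white ones. The gene, at chr8:83290348-83298456, was at 1.53, 0.38 and 1.17 log2 CPM in the 3 beige libraries and at -2.21, -5.59, -3.19, -1.11 and -1.99 in the 5 white libraries. The groups did not overlap, and the difference was 3.84 ± 0.57 (adjusted p = 1.5e-05). In cold beige adipocytes Ucp1 was at 11.34, so that rewarmed cells lay 10.31 ± 0.60 below them. Over the list of 37 measured thermogenic genes, 24 were higher in rewarmed beige than in white, 4 were lower and 9 were not called, with a median of 0.83. Against cold beige, whose contrast shares the rewarmed libraries, 35 of the 37 were lower, where 36.9% of all rows were. Members differed in how near they stood to the white and to the cold beige level.

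Those genes took different positions. Slc27a2, encoding a very long chain fatty acid transporter and acyl-CoA synthetase of peroxisomes and the endoplasmic reticulum, stood nearer to its cold level than to its white one. Its values were 6.09, 5.15 and 4.73 in rewarmed beige and -1.50, -1.81, -5.76, -1.60 and -5.80 in white, a difference of 8.62 ± 0.73 (adjusted p = 5.9e-09), with 2 white libraries at the floor and a cold beige mean of 8.32. Cidea, a lipid droplet protein that is a classical marker of brown and beige fat, was at 7.83, 7.66 and 6.51 against 2.18, 3.74, 2.57, 1.71 and 2.66, a 27.1-fold difference (4.76 ± 0.29, adjusted p = 3.39e-11), and at 10.14 in cold beige. Pdk4, the kinase that turns off pyruvate dehydrogenase and so favours fat as fuel, was at 10.19, 10.42 and 10.38 against 6.75 to 7.24, 3.40 ± 0.13 higher, with a cold mean of 11.52. Plin5, which ties lipid droplets to mitochondria, was at 6.73 to 7.56 against 4.34 to 5.29, and at 8.82 in the cold. Each of these stood nearer to cold beige than to white.

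Other members stood well below their cold level and still above white. Cpt1b, the muscle and brown fat form of the enzyme that admits long chain fatty acids to mitochondria, was at 4.87, 4.21 and 3.75 against 0.97, 0.51, 0.45, -0.14 and -0.23 (3.96 ± 0.22, adjusted p = 7.21e-12), with a cold beige mean of 9.69. The cytochrome oxidase subunits of heart, muscle and brown fat had the same order. Cox8b was at 4.42, 4.37 and 4.49 against 2.09, 1.71, 2.07, 1.42 and 1.76 (2.62 ± 0.13) and at 8.48 in the cold, and Cox7a1 was at 2.12 to 2.97 against -5.60 to -0.65 and at 7.79 in the cold. Dio2, the deiodinase that makes active thyroid hormone inside the cell and whose promoter is printed above, was at 2.27, 2.34 and 1.67 against -1.14, 0.48, -0.93, -1.25 and -5.44 (3.75 ± 0.72, adjusted p = 0.00027), and at 9.48 in the cold. S100b, a protein that promotes sympathetic innervation of thermogenic fat and also a Schwann cell marker, was at 4.15 to 4.99 against -0.68 to 0.54 (4.51 ± 0.21). Its cold beige mean was 8.33, so it stood somewhat nearer to cold beige than to white. Of 6 Schwann cell and neuron markers measured, 1 was higher, S100b, and 2 under each of the 4 other scalings, with 2 also without beige replicate 1 or white replicate 2 and 3 without white replicate 4.

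A further set stood at or near the white level. Elovl3, a fatty acid elongase that is among the most cold-responsive genes of brown fat, was at the floor in 2 of 3 beige and 4 of 5 white libraries (0.52 ± 0.57, adjusted p = 0.498), and at 8.83 in cold beige. Clstn3, chosen after its value was seen, was at 3.41 to 3.95 against 3.55 to 3.93 (adjusted p = 0.696), where cold beige cells had 8.66. Gk, the glycerol kinase, was only 0.63 ± 0.13 higher than in white (3.80 to 4.21 against 3.10 to 3.56) beside 9.87 in the cold. The 4 thermogenic genes that were lower than in white were Ffar4, a fatty acid receptor (2.94 to 4.10 against 4.86 to 5.44, -1.66 ± 0.20), the beta-3 adrenergic receptor gene Adrb3 (-0.65), Pparg (-0.64) and Acot2 (-0.37). The calls of Adrb3 and Acot2 rested on single libraries: Adrb3 lost its call without beige replicate 1 or 3 or white replicate 3 or 5 (adjusted p of 0.0517 to 0.209), and Acot2 without any 1 of the beige replicates or without white replicate 1, 2 or 5 (0.0525 to 0.15).

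**Figure D3:**
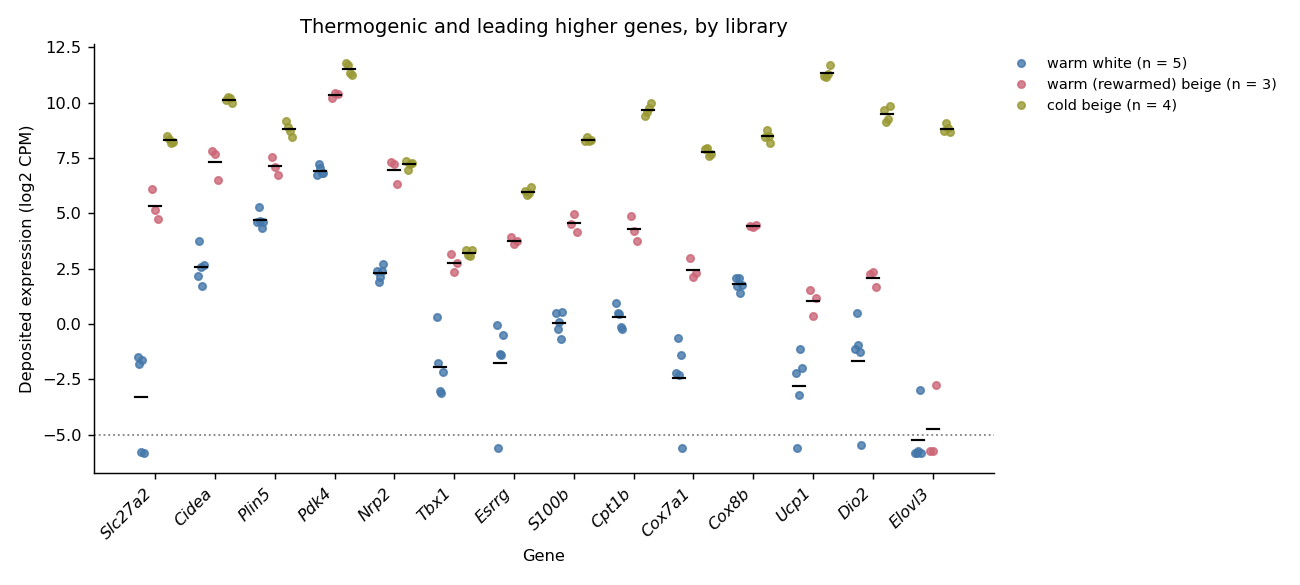
Deposited log2 CPM of 14 genes in single libraries of warm white, rewarmed (warm) beige and cold beige adipocytes. Points are libraries, short bars are group means, and the dotted line marks the floor at -5. The rewarmed beige points lie between the other groups for most genes, beside the cold points for Nrp2 and Tbx1, and with the white points for Elovl3.

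Transcriptional regulators of the thermogenic state differed from each other. Esrrg, encoding estrogen-related receptor gamma, which drives mitochondrial genes, was at 3.93, 3.61 and 3.74 against -0.03, -5.61, -1.33, -1.40 and -0.51 (5.54 ± 0.70, adjusted p = 1.91e-06), with 5.98 in cold beige. Ppargc1a was at 5.60, 5.28 and 5.39 against 4.68, 5.02, 4.65, 4.31 and 4.32 (0.83 ± 0.14), with 7.39 in the cold. Ebf2, a factor of the brown and beige lineage, was 0.28 ± 0.09 higher, with 6.01 to 6.07 against 5.66 to 5.94, and its adjusted p was 0.019 with all libraries and 0.0538 without beige replicate 3. Prdm16, the co-regulator that specifies brown and beige fat, was not called: its values of 5.51, 4.93 and 5.05 lay inside the white range of 4.6 to 5.67 (0.01 ± 0.18, adjusted p = 0.968). Of 30 measured regulators of adipogenesis, 6 were higher and 9 lower (median -0.06), beside 17.0% and 22.4% of all rows, and 6 and 5 after quantile normalization. Gata2 (3.32) was among the higher ones, and Klf15, a factor of lipid and amino acid metabolism, fell from 7.66 to 7.87 in white to 6.55 to 6.74 in beige (-1.12 ± 0.08, adjusted p = 3.46e-10). Gata2 is also strongly expressed by endothelial cells, whose markers were higher as well.

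The genes of a list of reported beige markers, not all of them particular to beige cells or to precursors, gave no single direction. Of 11 measured, 3 were higher, 2 lower and 6 not called, with a median of -0.01. Tbx1, a T-box factor, was at 3.15, 2.33 and 2.75 against 0.31, -1.75, -3.03, -3.09 and -2.15 (4.69 ± 0.82, adjusted p = 9.84e-05), and cold beige was at 3.21. P2rx5, an ATP-gated channel, was at 5.58, 5.08 and 5.12 against 3.03 to 3.66 (1.85 ± 0.15), and Aqp7, a glycerol channel, at 7.61 to 8.05 against 6.45 to 7.04 (1.03 ± 0.11). Klhl13 (-1.03 ± 0.20) and Cd81 (-0.37 ± 0.08) were lower. Shox2 and Hoxc9, chosen after their values were seen, were not called, and the groups did not overlap for Hoxc9 (3.46 to 3.85 against 4.12 to 4.73, -0.71 ± 0.32, adjusted p = 0.0818).

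Position genes, the homeobox and T-box factors that mark where on the body a cell arose, had 4 higher and 7 lower of 30, or 13.3% and 23.3%, near the 17.0% and 22.4% of all rows, with the same median of -0.04. After quantile normalization 4 were higher and 8 lower, and their median was -0.37, below the -0.04 of all rows. Hoxd8 was at 3.12, 3.20 and 3.52 against 5.16 to 5.83 (-2.22 ± 0.20, adjusted p = 2.32e-08), Prrx1 was lower by 1.21 and En1, in the brown lineage list, by 1.67 on the log2 scale. Tbx18, a factor of perivascular cells among others, was at 3.65 to 4.16 against -0.26 to 0.79 (3.64 ± 0.28), and Meox2, known from vessels and muscle, at 3.38 to 3.75 against -1.42 to 1.29 (2.95 ± 0.57). Zic1, the classical marker of brown fat of the back, chosen after its value was seen, was at the floor in all 8 libraries. Tbx15 was lower by 0.87, and of 14 brown lineage genes measured 5 were higher and 6 lower, which became 6 and 3 with totals taken without the 20 most abundant genes and 6 and 5 under the other 3 scalings.

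Mitochondrial respiration genes were higher together and by little. Of 76 measured subunits of the respiratory chain and ATP synthase, 52 were higher and 1 was lower, with a median of 0.42. Among all rows 17.0% were higher and 22.4% lower. By complex, 27 of 37 were higher in complex I, 10 of 13 in complexes II and III, 9 of 13 in complex IV and 6 of 13 in complex V. Cox5a was at 8.02, 7.91 and 7.15 against 6.80, 6.69, 6.51, 6.43 and 6.57 (1.09 ± 0.15), and Uqcrh at 9.0, 8.98 and 8.26 against 7.70 to 8.07 (0.85 ± 0.17). Cox8a, the ubiquitous partner isoform of Cox8b, was the one that was lower (6.73 to 6.93 against 6.98 to 7.46, -0.45 ± 0.09). Beige replicate 3 had the lowest beige value of Cox5a, Uqcrh, Ndufb9 and Sdhc, and in batch 1, where it stands alone against 3 white libraries, no complex I subunit was called. Without beige replicate 1, 6 genes of complexes II and III were called higher in place of 10. Against cold beige 69 of the 76 were lower.

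The tricarboxylic acid cycle had 11 of 18 genes higher and 1 lower (61.1% and 5.56%, median 0.34). Its summed CPM was 5710 and 5650 in beige replicates 1 and 2. In beige replicate 3 the sum was 4090, inside the white range of 3600 to 4430. Sucla2, a subunit of succinyl-CoA synthetase, was at 9.32, 9.18 and 8.35 against 7.62 to 7.79 (1.24 ± 0.15), and Suclg1 was 0.96 ± 0.15 higher, whereas Pcx, which makes oxaloacetate, was 0.37 lower, a call that was lost without beige replicate 1 or 3 or white replicate 1, 2 or 4 (adjusted p of 0.0622 to 0.132). Of the mitochondrial ribosome genes 5 of 52 were higher and 6 lower, with a median of -0.04, the same as that of all rows. Mrps35 was higher by 0.59 and Mrpl27 lower by 0.70 on the log2 scale. The counts were 9 and 10 after quantile normalization and 11 and 5 with totals taken without the 20 most abundant genes. They also moved with single libraries: 13 genes were higher without beige replicate 3, 2 without beige replicate 1 or 2 and 3 without white replicate 3 or 4, and 11 were lower without beige replicate 1.

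Fatty acid oxidation genes were higher in 20 of 35 cases and lower in 1 (57.1% and 2.86%), with a median of 0.35. Their summed CPM was 9080 and 9150 in beige replicates 1 and 2. In beige replicate 3 the sum was 7410, inside the white range of 6310 to 7630. This too holds for the deposited scaling only, where all values of replicate 3 add up to 0.859 of the CPM total. The white libraries reach 0.932 to 1.01 of it, and sums at a common total were not taken. Beside Cpt1b, Acaa2, the last enzyme of mitochondrial beta-oxidation, was at 7.99, 7.80 and 7.26 against 5.72 to 6.20 (1.66 ± 0.13, adjusted p = 1.5e-09), and Hadhb was at 6.67 to 7.29 against 5.75 to 6.13 (1.07 ± 0.11). Of 15 genes of other heat-producing cycles 7 were higher and none lower (median 0.64), Itpr1 (0.70 ± 0.08) and Slc6a8 (0.68 ± 0.12) among them. The calcium pump gene Atp2a1 was at 5.05 to 5.88 against 4.33 to 7.18 and was not called (adjusted p = 0.413), with white replicate 2, the library richest in muscle markers, the highest of all. Without that library the difference was 0.948 (adjusted p = 0.000199).

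**Figure D4:**
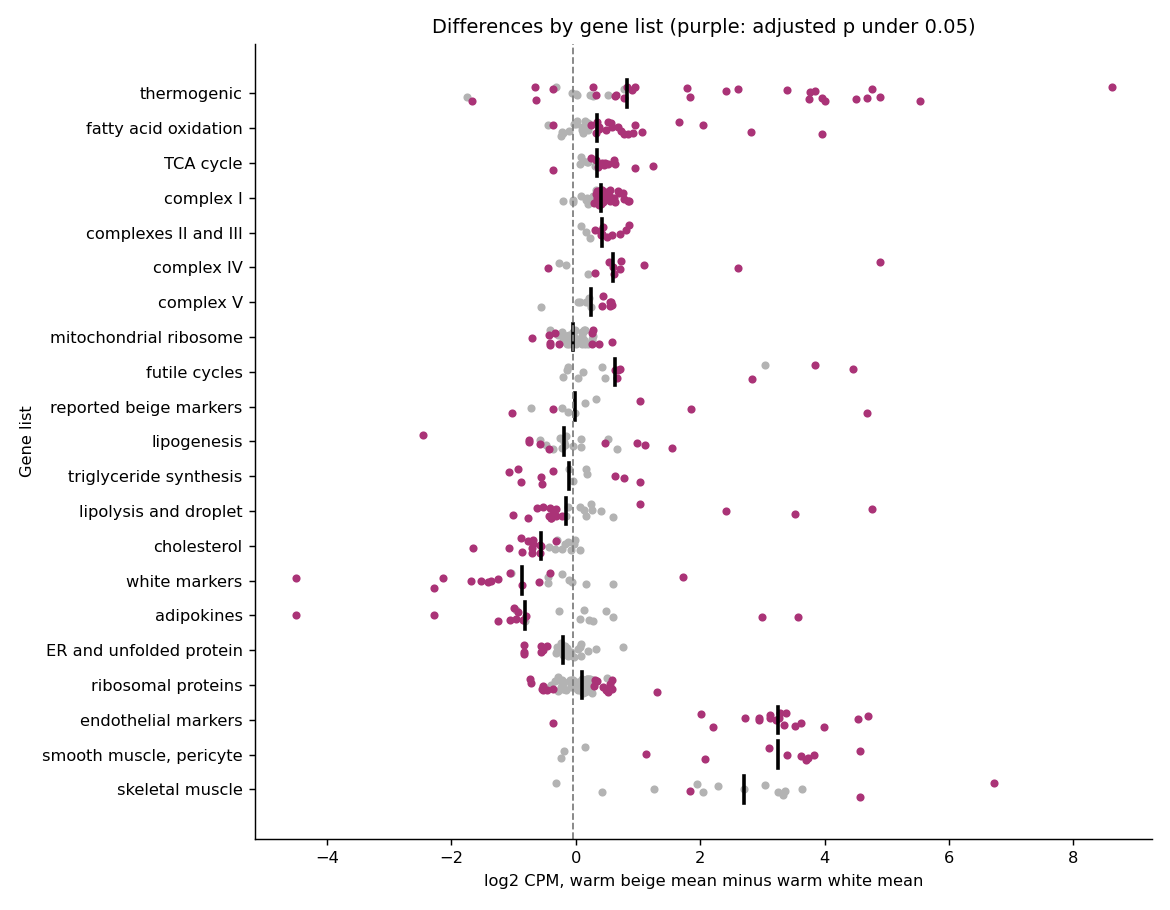
Differences in log2 CPM between rewarmed beige and warm white means for the members of 21 gene lists. Each point is a gene, purple where its adjusted p was under 0.05, the black bar is the list's median and the dashed line the median of all rows (-0.04). The 4 lists of respiratory complexes lie to the right by a fraction of a log2 unit, the white marker and adipokine lists to the left, and the endothelial and smooth muscle lists far to the right.

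On the white side, marker genes of white adipocytes were lower in rewarmed beige in 12 of 21 cases and higher in 1 (median -0.87), and adipokines, hormones secreted by fat, in 9 of 20 with 2 higher (median -0.81). Agt, angiotensinogen, was at 0.37, 1.45 and 0.34 against 5.08, 5.25, 4.89, 5.79 and 5.07 (-4.50 ± 0.84, adjusted p = 0.0002), 22.6-fold lower. Rbp4, the retinol carrier, was at 4.78, 5.43 and 4.81 against 7.15 to 7.44 (-2.28 ± 0.20), and cold beige was at 5.31. Retn, encoding resistin, was at 7.38, 8.56 and 8.37 against 9.24 to 9.44 (-1.25 ± 0.30), and Igf1 was at 7.25 to 7.96 against 8.69 to 9.21 (-1.37 ± 0.27). Adipoq, adiponectin, was at 9.51, 9.37 and 9.06 against 9.96 to 10.22 (-0.80 ± 0.16, adjusted p = 0.000373), between white and the cold mean of 8.56. These groups did not overlap.

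Leptin was more variable. Lep was at 10.35, 9.0 and 8.51 in rewarmed beige and at 9.92, 10.25, 10.56, 10.19 and 10.80 in white, so that the groups overlapped, and the difference of -1.06 ± 0.38 had an adjusted p of 0.0315, which was 0.12 without beige replicate 2, 0.217 without beige replicate 3, 0.0577 without white replicate 3 and 0.0688 without white replicate 5. Its cold beige mean was 5.98. Nnat, Sncg and Hcar1, white markers chosen after their values were seen, were not called: Nnat was at 10.31 to 10.89 against 10.39 to 10.97, Sncg at 7.44 to 8.75 against 8.05 to 8.61, and Hcar1 at 8.13 to 8.97 against 7.98 to 8.77. In cold beige the means of these 3 were 4.72, 4.59 and 5.95. C1qtnf9 (3.58 ± 0.43) and Sparcl1 (2.99 ± 0.46) were the adipokines that were higher, and both are known from endothelial cells as well.

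The largest differences on the white side, by the rule used to name genes, included several regulators and enzymes. Klf14, an imprinted transcription factor linked to adipocyte size and insulin action, at chr6:30956021-30958990, was at -1.74, -5.65 and -1.34 in beige and at 3.19, 2.98, 3.61, 2.76 and 3.46 in white (-6.11 ± 1.03, adjusted p = 6.43e-05), with 1 beige library at the floor. Cyp2f2, a cytochrome P450 at chr7:27119955-27133660 whose promoter is printed above, was at 3.16, 3.81 and 3.36 against 7.89, 7.97, 7.81, 8.29 and 7.83, 22.9-fold lower (-4.51 ± 0.37, adjusted p = 4.85e-09), and at 3.78 in cold beige. Ptgfr, the receptor of prostaglandin F, was at -0.89 to -0.27 against 2.52 to 4.20 (-4.11 ± 0.73), Slc16a12, a creatine transporter, at 0.26 to 1.11 against 3.92 to 5.29 (-3.71 ± 0.38), and Fgf13 was lower by 4.14. Wfdc21 (-4.05), D430019H16Rik (-3.94), Pak3 (-3.61) and Sema3c (-3.57) followed. With Agt, these were the 10 genes of the rule. Their cold beige levels differed in place. Rewarmed minus cold beige was -0.34 for Cyp2f2, -0.51 for Ptgfr, 0.06 for Wfdc21, -0.41 for D430019H16Rik and -0.42 for Slc16a12, none of them called. It was -1.06 for Fgf13, 1.54 for Agt and 1.90 for Klf14, also not called. Pak3 was higher in rewarmed than in cold beige by 1.90 (adjusted p = 0.0351 from limma). Sema3c was lower by 3.07 (adjusted p = 0.000286), with a cold mean of 3.97 beside 4.48 in white.

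**Figure D5:**
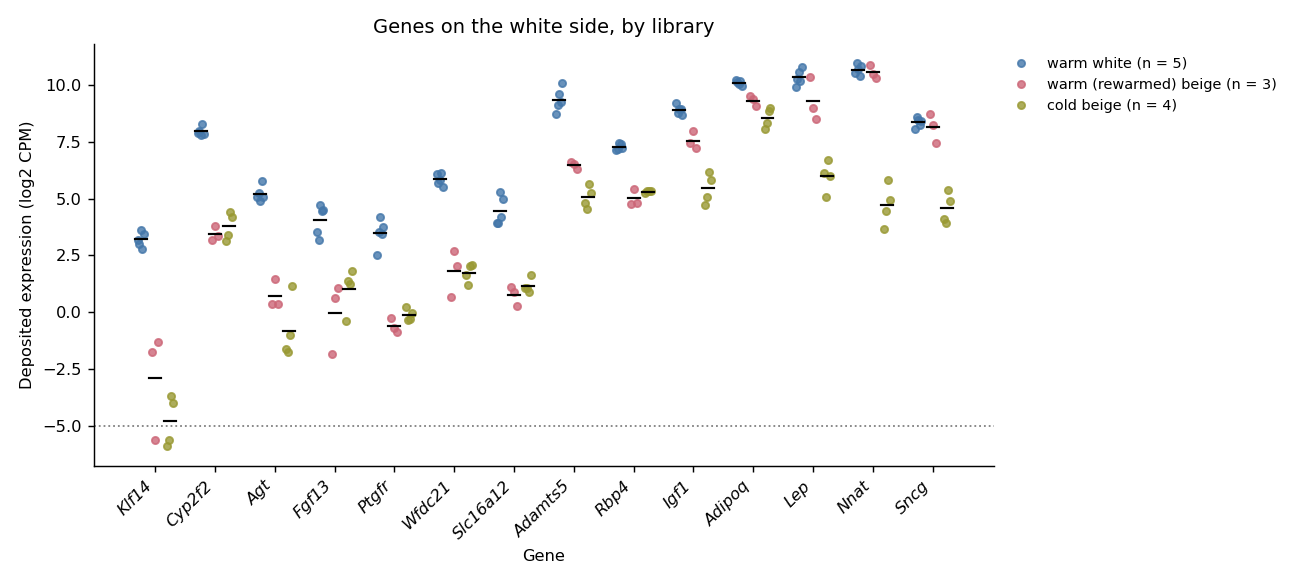
Deposited log2 CPM of 14 genes that lead the white side or are white adipocyte markers, in single libraries of warm white, rewarmed (warm) beige and cold beige adipocytes. Points are libraries, bars are group means and the dotted line marks the floor. Klf14 to Rbp4 lie below white in both beige groups, whereas the rewarmed beige points of Nnat and Sncg lie among or beside the white ones and the cold points lie below.

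The rule takes genes whose groups do not overlap and whose higher group averages at least 3 log2 CPM, which leaves out Igf2 (5.23), Cox7a1 (4.90) and Tbx1 (4.69). On the beige side it named Slc27a2, Esrrg, Cidea and S100b, described above, together with Nrp2, 8430408G22Rik, Cpn2, Vwf, Gja5 and Lmod1. Nrp2, a co-receptor for semaphorins and vascular growth factors, was at 7.30, 7.25 and 6.31 against 2.38, 1.90, 2.14, 2.40 and 2.72 (4.65 ± 0.17, 25.0-fold, adjusted p = 1.89e-14), and cold beige was at 7.21. Cpn2, a subunit of a plasma carboxypeptidase, was at 2.39 to 3.79 against -2.96 to -0.30, and 8430408G22Rik at 5.31 to 5.67 against -0.27 to 1.69. Vwf (4.70) and Gja5 (4.65) are endothelial genes and Lmod1 (4.56) a smooth muscle gene, 3 of the 10 genes that the rule named. Cyp2b10, A530065N20Rik, Rab17 and Cib4 were at the floor in all 5 white libraries, and Cyp2b10 was at 0.42, -0.43 and -0.06 in rewarmed beige and 5.94 in cold beige. In the other direction 9030619P08Rik, Ptgds, Acox2 and Tacr2 were at the floor in all 3 rewarmed beige libraries, and for each of them at least 1 white library was at the floor too.

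Of 22 lipogenic genes 4 were higher and 5 lower, or 18.2% and 22.7%, near the shares of all rows (17.0% and 22.4%). Acss1 (1.55 ± 0.14), Acacb (1.12 ± 0.15) and Elovl6 (0.98 ± 0.11) were higher, with Elovl6 at 6.69, 6.62 and 6.54 against 5.53 to 5.81, while Fads1, the delta-5 desaturase, was at 3.44, 5.07 and 4.69 against 6.79 to 6.94 (-2.46 ± 0.24, adjusted p = 6.43e-08). The regulator Srebf1 was lower by 0.75 on the log2 scale. Without beige replicate 1 or 3, 3 lipogenic genes were called lower. Triglyceride synthesis had 3 higher and 6 lower of 13 genes (23.1% and 46.2%). Dgat2 (9.72 to 9.80 against 10.29 to 11.02, -0.88 ± 0.13), Agpat9 (-1.08), Agpat2 (-0.93) and Gpam (-0.56) were on the lower side and Pck1 (0.78 ± 0.18) on the higher.

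Of 25 genes of lipolysis and the lipid droplet 12 were lower and 4 higher (median -0.16), 6 higher and 7 lower after quantile normalization. Cidec, which enlarges single lipid droplets, was at 9.82, 10.07 and 10.16 against 10.68 to 10.95 (-0.77 ± 0.09), opposite to its relative Cidea. Plin1, which coats the droplet, was lower by 0.40 and hormone-sensitive lipase, Lipe, by 0.31 on the log2 scale. Gpihbp1, made by capillary endothelium, where it anchors lipoprotein lipase, was 3.53 ± 0.50 higher.

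Cholesterol synthesis and uptake genes were lower in 13 of 23 cases (56.5%, beside 22.4% of all rows) and higher in none, with a median of -0.57. Sc5d was at 6.12 to 6.63 against 6.72 to 7.71 (-0.86 ± 0.17), and Hsd17b7 (-1.07) and Mvd (-0.88) were also lower. Without beige replicate 3, which had the lowest value of Sc5d, Hsd17b7 and Mvd, 7 genes of the list were called lower, and Hsd17b7 (adjusted p = 0.116) and Mvd (0.0936) were not. Glucose use had 13 genes higher and 5 lower of 31 (41.9% and 16.1%, median 0.18). Ldhb was 1.32 ± 0.15 and Hk1 0.96 ± 0.19 higher, and the insulin-responsive transporter gene Slc2a4 was lower, at 7.27 to 7.39 against 7.68 to 7.95 (-0.49 ± 0.08). Without beige replicate 3, 3 glucose genes were called lower.

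Of 33 receptors and signalling genes of the adrenergic and cAMP pathway, 14 were higher and 8 lower, and 15 and 4 after quantile normalization. The share higher was 42.4%, beside 17.0% of all rows. The share lower, 24.2%, was near the 22.4% of all rows. Adrb3 was at 8.93, 9.90 and 9.50 against 9.64 to 10.62. Rgs2, which damps signalling by G proteins, was at 6.87, 7.92 and 7.42 against 3.42 to 4.84 (3.01 ± 0.24), and Npr1, the natriuretic peptide receptor, at 6.15 to 7.15 against 3.91 to 5.39 (2.22 ± 0.27). Gnai1, an inhibitory G protein subunit, was lower by 0.93. Without white replicate 5, 5 genes of this list were called lower.

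Insulin and growth factor genes had 5 higher and 9 lower of 25, and 7 and 7 after quantile normalization. Igf2 was at 2.33, 3.00 and 1.75 against -6.28, -0.36, -0.66, -5.29 and -1.74 (5.23 ± 1.12, adjusted p = 0.000791), with 2 white libraries at the floor, whereas Igfbp4 (-1.30 ± 0.21) and Grb10 (-1.01 ± 0.15) were lower. Among genes of the WNT, BMP, TGF-beta and FGF pathways 10 were higher and 12 lower of 36 (27.8% and 33.3%). Bmp6 was at 4.30, 4.99 and 3.75 against -0.11 to 1.29 (3.46 ± 0.47), and Apcdd1, an inhibitor of WNT signals, at 7.30 to 7.89 against 8.88 to 9.27 (-1.41 ± 0.36). Immediate early genes were higher in 10 of 24 cases and lower in 1 (median 0.43), with Egr1 at 4.22, 3.24 and 3.77 against -1.67 to 1.52 and Klf2, also a flow-responsive endothelial factor, at 4.62 to 5.03 against 1.72 to 2.61.

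Matrix genes changed in both directions, 12 higher and 18 lower of 42 (28.6% and 42.9%, beside 17.0% and 22.4% of all rows). Adamts5, a protease that cleaves aggrecan and versican, was at 6.60, 6.52 and 6.30 against 8.74, 9.11, 9.61, 9.27 and 10.09 (-2.89 ± 0.24, adjusted p = 6.37e-09). The basement membrane genes Col15a1 (-1.82 ± 0.26) and Nid1 (-1.69 ± 0.25) were lower as well, while elastin, Eln, was at 7.14, 7.90 and 6.93 against 4.29 to 4.90 (2.78 ± 0.41) and Fbn1 1.32 ± 0.26 higher. Smooth muscle cells and fibroblasts also make elastin and fibrillin, and 9 of 12 smooth muscle and 10 of 18 fibroblast markers were higher in the same libraries, while the fibroblast sum was not.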

How the data were processed

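The authors deposited 1 table of log2 CPM values for all mRNA libraries. The tools that the submitters' processing notes list are featureCounts, HISAT2, edgeR and Picard, and the build is mm10. Their roles and versions, the annotation and the counting strand are not given in the sources used here. Ribo-Zero depletion and the Nextera XT kit preceded sequencing, per the labels' protocols. The antilogs of a library sum to between 85.9% and 110.0% of the CPM total, so the values are not plain shares of a common total. The lowest sum is that of rewarmed beige replicate 3. Read totals are not given, so depth is unknown.

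From these values, limma 3.58.1 in R 4.3.3 (a moderated linear model with a mean-dependent prior, two-sided) was fitted to all 22 libraries with 1 mean for each of 5 groups (17 residual degrees of freedom), and p-values were adjusted by Benjamini and Hochberg over the 11603 rows, which all reached 1 CPM in 3 libraries. The fit was also run on simulated data with independent normal noise. These had no batch subtraction and no floor, so that run cannot show how either affects the p-values here. Lists use 1 row per symbol, the one with the highest mean.

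The comparison, its members and the gene lists were chosen with earlier results of these data known. Genes were named by rule: 10 fixed genes, the 10 largest non-overlapping differences in each direction, up to 4 at the floor in 1 group, up to 4 called members of each list in each direction, and markers of other cell types. Others are said to be chosen after their values were seen. Gene positions and promoters are from RefSeq, GRCm38.p6. Alternatives covered pseudocounts, filters, scalings, weights, batches, replicate blocks and leaving out each library. Results for 4 members of the lists are not reported here by name.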

Additional observations from a re-analysis of the deposited data

Results flagged for a closer look

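Among the 135 genes given with values, 10 had 1 warm white library that stood far from the other 4. The measure was the gap to the nearest white library over the range of the white values, 0.711 to 0.961 for these genes. For normally distributed values chance sets apart about 1 group in 20. That rate does not hold for steps to or from the floor, and whether 10 of 135 is more than it was not tested. For Esrrg, Gja5, Elovl3 and Tacr2 the gap was a step to or from the floor. White replicate 2 was that library for 5 of them: Esrrg at -5.61 and Gja5 at -5.77, both at the floor, Bmp6 at -0.11, Gk at 3.1 and, on the high side, Atp2a1 at 7.18. The same library had the highest sum of skeletal muscle markers, 1070 CPM. White replicate 4 stood apart low for Cpn2 at -2.96 and high for Elovl3 at -2.99, and white replicate 5 stood apart low for Meox2 at -1.42 and Rgs2 at 3.42. For Tacr2, white replicate 1 at -2.32 was the only library of the 8 above the floor.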

How the results depend on the processing

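Counts of calls depended on which libraries set the spread. With the 8 libraries of these 2 groups alone, 3016 rows were called, 1659 of them lower. Within batch 1 the counts were 1304 in all, 600 higher and 704 lower, and 729 at 2-fold, 491 higher and 238 lower, from 4 libraries. Totals without the 20 most abundant genes gave 1713 lower rows. The logarithm of CPM + 5, which shrinks differences of low genes by construction, gave 574 rows at 2-fold, 376 higher and 198 lower. Quantile normalization gave 804 higher and 705 lower at 2-fold, against 953 and 382 as deposited, and the cause was not tested. Leaving out 1 library gave 3830 to 4433 calls, 1648 to 1991 higher and 2182 to 2558 lower, and 1265 to 1348 at 2-fold, 889 to 993 higher and 343 to 399 lower. Of the 117 called genes with a difference in the text, 53 kept sign and call in all 23 alternatives, 64 lost the call in at least 1 and 0 changed sign, and 58 of these genes lost it within batch 1. The sign of genes that were not called changed: for Prdm16 to -0.056 with array weights, -0.23 in batch 1 and -0.042 with the block below (-0.162 to 0.141 leaving out 1 library), for Elovl3 to -0.187 with quantile normalization, -0.265 with array weights and -1.37 in batch 2 (-0.482 to 1.082), for Clstn3 to 0.035 with totals without the 20 genes, 0.082 with array weights and 0.08 in batch 2 (-0.22 to 0.05), for Nnat to 0.064 with quantile normalization and 0.16 in batch 2 (-0.272 to 0.018), for Sncg to 0.14 in batch 2 (-0.521 to 0.134), for Hcar1 only on leaving out 1 library (-0.093 to 0.327), and for Atp2a1 to -0.387 in batch 1. Replicate numbers are shared by the groups, but deviations of same-numbered libraries did not correlate (-0.081, 0.085 and 0.095 by title, -0.109, -0.056 and -0.148 by library number). As a replicate block, the title numbers gave 4214 calls (1824 higher, 2390 lower) and the library numbers 4273 (1901 higher, 2372 lower), against 4572 without a block. Read totals are not in the table, so what depth limits cannot be given, but 39 to 149 values of each of these libraries lay at the floor.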

Other observations

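Other gene groups are given beside the shares of all rows, 17.0% higher and 22.4% lower. Interferon-induced genes had 6 of 38 members higher and 2 lower (15.8% and 5.26%, median 0.05), with the antiviral gene Rsad2 at 4.28, 4.12 and 3.80 in rewarmed beige against 2.43 to 3.42 in white (1.29 ± 0.31) and the GTPase gene Gbp5 at 3.74 to 4.21 against 2.10 to 3.18 (1.33 ± 0.38). Genes of antigen presentation by MHC class I had 1 of 15 higher and 5 lower (6.67% and 33.3%), and 1 and 3 after quantile normalization. B2m, the light chain of the MHC class I complex, was at 7.35, 7.19 and 7.45 against 8.09 to 8.50 (-1.0 ± 0.21), and H2-K1 was lower by 0.54 on the log2 scale. Without beige replicate 3, 2 genes of that list were called lower.

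Genes of the endoplasmic reticulum and the unfolded protein response were lower in 7 of 27 cases (25.9%, near the share of all rows) and higher in none (median -0.20), with 2 higher under 3 of the 4 other scalings, and without beige replicate 1 the number lower was 11. P4hb, a protein disulfide isomerase, was at 7.90, 7.99 and 7.61 against 8.61 to 8.73 (-0.83 ± 0.09), and Xbp1, a transcription factor of secretory cells, was lower by 0.83. Autophagy and lysosome genes were lower in 11 of 33 cases and higher in 3, and after quantile normalization in 8 and 7. The lysosomal enzymes Ctsl (-0.96 ± 0.09) and Gaa (-0.93 ± 0.08) and the membrane protein Lamp2 (-0.52 ± 0.06) were lower, with Gaa at 6.00, 6.05 and 5.82 against 6.78 to 6.97. Of 69 ribosomal protein genes 11 were higher and 7 lower (15.9% and 10.1%, median 0.10), no more than among all rows. The number higher was 3 without beige replicate 1 and 21 without beige replicate 3, and the number lower was 1 without beige replicate 2, 3 without white replicate 1 or 5 and 4 without white replicate 3. After quantile normalization 14 were higher and 11 lower, and with totals taken without the 20 most abundant genes 20 and 2. The 3 measured mammary and keratinocyte markers were all lower. Trp63, a transcription factor gene of keratinocytes, was at 3.15, 4.05 and 1.95 against 4.18 to 6.24, and lost its call without beige replicate 3 (adjusted p = 0.118 from limma, and 1.55e-05 to 0.127 over its alternatives). Prlr, the prolactin receptor gene, was at 1.48, 2.31 and 2.33 against 3.77 to 4.84.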
